A study of Mus musculus with 16 samples.

Results

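The 10 genes described here were Tlr1, Tlr2, Tlr4, and Tlr6, Toll-like receptors of the cell surface, Tlr3, Tlr7, Tlr8, Tlr9, and Tlr13, Toll-like receptors of the endosome, and Unc93b1, the chaperone of the endosomal receptors. They were chosen by name, out of 22911 genes that the array names, and their probes were those whose transcript accession belongs to one of them. Kidney RNA of 16 mice was read on as many one-color arrays. The genotypes, each with 4 mice, were wild-type, Sting gt/gt, Fcgr2b-/-, and the double-deficient Fcgr2b-/-.Sting gt/gt. FCGR2B is the inhibitory receptor for IgG, mice without it develop a lupus-like disease, and gt is the Goldenticket allele, which leaves no functional STING. The study asked how the loss of STING alters this disease.

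All mice were labelled as 6 months old. Those without Fcgr2b, on both Sting genotypes, carry a 129/C57BL/6 strain label, whereas wild-type and Sting gt/gt mice are labelled C57BL/6, so the Fcgr2b genotype and the strain cannot be told apart. The labels of the Fcgr2b-/- group name only the Fcgr2b deletion, whereas figure legends of the study head the lupus group with a heterozygous Sting wt/gt genotype. The double-deficient mice came from a cross that also gave littermate controls, the Fcgr2b-deficient and the Sting-deficient lines came from different laboratories, and the wild-type mice were purchased. The labels do not give the sex. The mean log2 signal of 4 Y-linked genes, relative to the array's 75th percentile, was −1.01 or higher in wild-type replicates 1 and 2, Fcgr2b-/- replicate 3, double-deficient replicates 2 and 4, and Sting gt/gt replicate 3, and −6.13 or lower in the others, so each genotype held mice of both kinds.

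Toll-like receptors bind conserved structures of microbes and nucleic acids and signal through the adaptors MYD88 and TRIF to NF-kappa-B and interferon regulatory factors. The receptors for nucleic acids reach the endosome only with the help of UNC93B1, which carries them from the endoplasmic reticulum. In the kidney, macrophages and dendritic cells carry many of these receptors, and several are also made by tubular, endothelial, and mesangial cells.

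Each value below is the log2 of the processed signal of a probe minus the 75th percentile of its array, so 0 is the 75th percentile and a step of 1 is a doubling of the signal. Signals of different probes are not read as relative amounts of RNA, since probes differ in how strongly they bind. The number of probes well above background, as the scanner software judged each spot, ran from 28441 on the array of Fcgr2b-/- replicate 2 to 35564 on that of replicate 1 of the same genotype. Slide 1 carried 2 wild-type, 3 Fcgr2b-/-, 1 double-deficient, and 2 Sting gt/gt arrays, and slide 2 the other 8. The 10 genes had 16 probes, of which 14 probes of 9 genes were tested with limma, among 35628 probes that stood well above background in 4 or more mice. Where a gene has several probes, the brightest stands for it. To be called, a probe had to differ 2-fold or more with a p under 0.05 after Benjamini-Hochberg adjustment.

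The targeted genes were read first. Fcgr2b was at 2.13, 1.91, 1.60, and 1.14 in wild-type replicates 1 to 4 and at 0.70, 0.02, 0.06, and 0.19 in the Fcgr2b-/- replicates, and the double-deficient replicates were at −0.04, 0.50, −0.40, and −0.24 and those of Sting gt/gt at 1.54, 1.05, 0.70, and −0.19. All 4 Fcgr2b-/- arrays lay below all 4 wild-type arrays, with a log2 change of −1.45 (SE 0.35, adjusted p = 0.385 by limma). The probe was well above background on every array, also on those of the Fcgr2b-deficient mice. Sting gt/gt replicate 3, at 0.70, was level with Fcgr2b-/- replicate 1. Sting gt/gt replicate 4, at −0.19, lay among the arrays of the Fcgr2b-deficient mice although its label leaves Fcgr2b intact. The change of Fcgr2b between Sting gt/gt and wild-type mice was −0.92 (SE 0.35, adjusted p = 0.732 by limma). Why Sting gt/gt replicate 4 was low was not tested, and this array was kept. The probe of Sting1 was at 2.69 and 2.49 in Fcgr2b-/- replicates 1 and 4 and between −1.35 and 1.03 on the other 14 arrays, whatever the Sting allele, with a log2 change of 1.42 (SE 0.66, adjusted p = 0.9996 by limma) between the Fcgr2b-/- and the wild-type mice. The Goldenticket allele is a point mutation, so the level of the RNA does not check it.

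In the kidneys of the Fcgr2b-/- mice against wild-type, 8 of the 9 tested genes had a mean above that of the wild-type mice and 1, Tlr9, a mean below it. The largest differences were those of Tlr1, Tlr2, Tlr13, Unc93b1, and Tlr6, the last against 2 wild-type arrays not well above background. Replicates 1 and 4 of the Fcgr2b-/- mice were the highest arrays for each of these genes, whereas replicates 2 and 3 lay above the wild-type mean but below the highest wild-type array. None of the 9 genes was called by limma after adjustment over all 35628 probes, where 18 probes (0.0505%) were. At an unadjusted p under 0.05, 5 of the 9 genes passed, all of them higher, beside 1192 probes (3.35%) in either direction and 939 (2.64%) that were higher. By the two-tailed Mann-Whitney test, whose smallest p for 4 against 4 is 0.0286, 0 of the 9 genes passed, since no gene's groups were free of overlap, beside 441 probes (1.24%) that did not overlap. The median log2 change was 1.38 over the 9 genes and −0.06 over all probes tested. This is bulk tissue, from kidneys that had not been perfused, in which more cells of a type and more RNA per cell cannot be told apart.

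**Figure D1:**
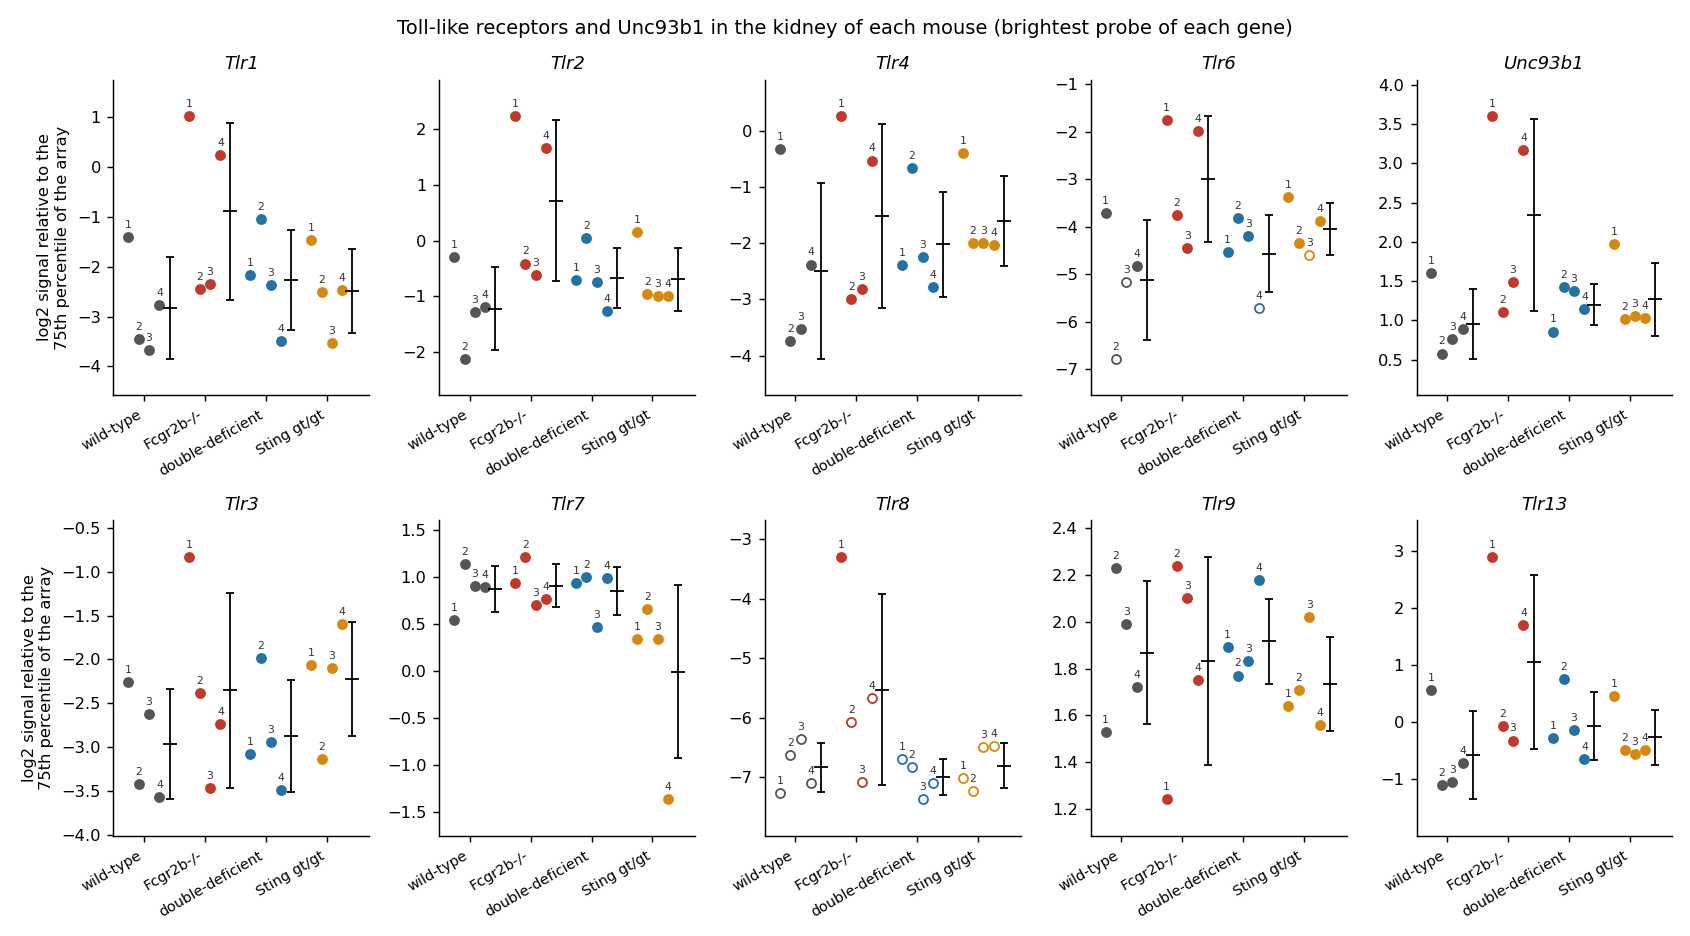
Log2 signal of the brightest probe of each of the 10 genes relative to the array's 75th percentile, in each mouse of the 4 genotypes; the number is the replicate, filled points were well above background, open points were not, and bars are the mean ± SD of 4 mice. Fcgr2b-/- replicates 1 and 4 stand above the other arrays for Tlr2 (2.24 and 1.66) and Unc93b1 (3.60 and 3.17), Tlr9 keeps between 1.24 and 2.24, and Tlr8 was well above background on 1 array.

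The sequences before the start of 5 of these genes are shown because Tlr1, Tlr2, Tlr6, and Tlr13 were high on the same arrays and Tlr9 was lowest on the array where they were highest. Of the 10 genes, 7 matched the RefSeq table of promoters (build GRCm38.p6, 250 bases before to 50 after the start), and Tlr4, Tlr7, and Unc93b1 did not. Capitals mark matches, on either strand, to a PU box (GAGGAA, or TTCCTC on the other strand) or to an interferon regulatory factor element (AANNGAAA, or TTTCNNTT on the other strand), motifs that were picked after the letters had been looked at. A PU box is in 9289 of 32851 promoters (28.3%) and the interferon regulatory factor element in 7857 (23.9%). The 7 genes have 9 promoters in the table, of which 4 held a PU box (of Tlr1, Tlr8, Tlr9, Tlr13) and 4 the interferon regulatory factor element (of Tlr1, Tlr2, Tlr3, Tlr6), and matches of one motif never overlapped those of the other. A match describes these letters only. Tlr1 has 2 entries, of which the one not shown holds the interferon regulatory factor element, and the one shown, at chr5:64933509-64933808 on the minus strand, has a PU box from 23 bases before the start. Tlr2, at chr3:83841559-83841858 on the minus strand, has interferon regulatory factor elements from 191 and 145 bases before the start. Of the 2 entries of Tlr6, the one shown, at chr5:64959117-64959416 on the minus strand, has 4 such elements, from 239, 116, 110, and 104 bases before the start, the last 3 of which overlap their neighbors, and the other has none. Tlr13, at chrX:106143025-106143324 on the plus strand, has a PU box from 83 bases before the start. Tlr9, at chr9:106222348-106222647 on the plus strand, has a PU box from 112 bases before the start and another, on the other strand, from base 13 after it.
Tlr1: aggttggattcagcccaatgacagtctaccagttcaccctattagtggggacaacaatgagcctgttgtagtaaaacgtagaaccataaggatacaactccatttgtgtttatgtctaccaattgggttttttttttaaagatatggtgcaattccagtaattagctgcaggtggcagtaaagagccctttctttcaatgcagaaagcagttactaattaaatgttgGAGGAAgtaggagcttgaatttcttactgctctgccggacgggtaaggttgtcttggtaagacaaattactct
Tlr2: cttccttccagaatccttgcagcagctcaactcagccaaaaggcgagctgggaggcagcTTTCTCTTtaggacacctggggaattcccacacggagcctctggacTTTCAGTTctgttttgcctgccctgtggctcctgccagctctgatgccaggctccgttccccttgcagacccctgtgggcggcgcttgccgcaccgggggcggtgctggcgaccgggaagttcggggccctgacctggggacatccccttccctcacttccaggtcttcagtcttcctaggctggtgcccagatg
Tlr6: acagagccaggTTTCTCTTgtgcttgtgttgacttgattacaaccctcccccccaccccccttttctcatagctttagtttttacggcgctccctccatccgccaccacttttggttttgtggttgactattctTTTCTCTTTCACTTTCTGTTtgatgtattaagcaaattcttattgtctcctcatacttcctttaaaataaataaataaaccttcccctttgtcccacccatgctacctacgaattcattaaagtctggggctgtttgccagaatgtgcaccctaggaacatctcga
Tlr13: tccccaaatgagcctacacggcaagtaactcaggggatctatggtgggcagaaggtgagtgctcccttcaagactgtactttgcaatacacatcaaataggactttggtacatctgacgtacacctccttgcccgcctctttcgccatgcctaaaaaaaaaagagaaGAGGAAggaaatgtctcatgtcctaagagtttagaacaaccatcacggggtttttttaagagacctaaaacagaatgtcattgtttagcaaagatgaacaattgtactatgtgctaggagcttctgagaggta
Tlr9: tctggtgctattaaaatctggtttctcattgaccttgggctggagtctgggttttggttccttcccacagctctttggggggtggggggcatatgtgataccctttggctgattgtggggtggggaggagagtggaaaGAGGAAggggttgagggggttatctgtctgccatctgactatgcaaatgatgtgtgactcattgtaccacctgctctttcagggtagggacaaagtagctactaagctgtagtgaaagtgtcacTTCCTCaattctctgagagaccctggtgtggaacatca

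Among the receptors of the cell surface, TLR2 recognizes bacterial lipoproteins together with TLR1 or TLR6. Tlr2 was at −0.29, −2.12, −1.29, and −1.19 in wild-type replicates 1 to 4, at 2.24, −0.41, −0.61, and 1.66 in Fcgr2b-/- mice, at −0.71, 0.05, −0.75, and −1.27 in double-deficient mice, and at 0.16, −0.96, −0.99, and −0.99 in Sting gt/gt mice. Replicates 1 and 4 of the Fcgr2b-/- mice stood above all the other arrays, and replicates 2 and 3 lay below wild-type replicate 1. The means were −1.22 ± 0.75 (SD, n = 4) in wild-type, 0.72 ± 1.44 in Fcgr2b-/-, −0.67 ± 0.55 in double-deficient, and −0.69 ± 0.57 in Sting gt/gt mice, so that all but the Fcgr2b-/- mean lay within 1 SD of the wild-type mean. The difference between Fcgr2b-/- and wild-type was 1.94 (SE 0.59, 95% interval 0.69 to 3.20, 3.84-fold), with 4 of 4 Fcgr2b-/- arrays above the wild-type mean, and missed the adjusted threshold (unadjusted p = 0.0048, adjusted p = 0.823 by limma). Within slide 1 it was 2.37 (3 arrays against 2) and within slide 2 it was 0.63 (1 against 2), and with the slide as a block 1.80.

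Tlr6, the partner of TLR2 for diacylated lipoproteins, was well above background on 12 of the 16 arrays, the exceptions being wild-type replicates 2 and 3, double-deficient replicate 4, and Sting gt/gt replicate 3. Its values were −3.71, −6.78, −5.17, and −4.83 in the wild-type mice, −1.76, −3.76, −4.45, and −1.99 in Fcgr2b-/- mice, −4.54, −3.82, −4.19, and −5.71 in double-deficient mice, and −3.37, −4.35, −4.59, and −3.87 in Sting gt/gt mice. Fcgr2b-/- replicates 1 and 4 were again the highest of all arrays, and replicates 2 and 3 lay below wild-type replicate 1. The difference was 2.13 (SE 0.67, unadjusted p = 0.0061, adjusted p = 0.919 by limma), with 4 of 4 Fcgr2b-/- arrays above the wild-type mean of −5.12 ± 1.27 (SD). Since 2 of the 4 wild-type arrays were not well above background, its size and its p depend on how background is treated. No exact size is therefore read from 2.13, and with normexp correction the difference was 0.75. On slide 1 and on slide 2 the difference was 2.74 and 0.55, and with the slide as a block 2.02.

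Tlr1, the partner of TLR2 for triacylated lipoproteins, was at −1.41, −3.46, −3.67, and −2.76 in the wild-type mice and at 1.02, −2.45, −2.35, and 0.23 in Fcgr2b-/- mice. The double-deficient mice were at −2.16, −1.05, −2.37, and −3.49, and the Sting gt/gt mice at −1.47, −2.51, −3.53, and −2.46. Fcgr2b-/- replicates 1 and 4 stood apart, and all other arrays of the 4 genotypes lay between −3.67 and −1.05. Fcgr2b-/- minus wild-type was 1.94 (SE 0.78, unadjusted p = 0.025, adjusted p = 0.9996 by limma), with 4 of 4 Fcgr2b-/- arrays above the wild-type mean, and without Fcgr2b-/- replicate 1 it was 1.30. Its second probe was not well above background in wild-type replicates 2 and 3, and the brightest, which was, is read in its place. Within slides 1 and 2 the difference of the brightest probe was 2.03 and 0.86, and with the slide as a block 1.70.

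Tlr4, the receptor for lipopolysaccharide, ran from −3.74 to −0.32 in the wild-type mice and from −2.99 to 0.26 in Fcgr2b-/- mice. Wild-type replicate 1, at −0.32, lay above 3 of the 4 Fcgr2b-/- arrays, so the groups overlapped over most of their range. The means were −2.49 ± 1.57 (SD, n = 4) in wild-type, −1.52 ± 1.63 in Fcgr2b-/-, −2.02 ± 0.93 in double-deficient, and −1.60 ± 0.80 in Sting gt/gt mice, all within 1 SD of the wild-type mice of each other. The difference between Fcgr2b-/- and wild-type was 0.97 (SE 0.82, 95% interval −0.78 to 2.72), and without wild-type replicate 1 it was 1.69, whereas without Fcgr2b-/- replicate 1 it was 0.38. The second probe of the gene was well above background on only 5 arrays, so no difference is given for it. On slide 1 and on slide 2 the difference of the brightest probe was 0.94 and 0.13, and with the slide as a block 0.78.

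Unc93b1, the chaperone, was at 1.60, 0.58, 0.77, and 0.89 in the wild-type mice, at 3.60, 1.11, 1.49, and 3.17 in Fcgr2b-/- mice, at 0.86, 1.43, 1.37, and 1.15 in double-deficient mice, and at 1.97, 1.02, 1.06, and 1.03 in Sting gt/gt mice. Only Fcgr2b-/- replicates 1 and 4 were above 1.97, and replicates 2 and 3 lay below wild-type replicate 1. The means were 0.96 ± 0.45 (SD, n = 4) in wild-type, 2.34 ± 1.23 in Fcgr2b-/-, 1.20 ± 0.26 in double-deficient, and 1.27 ± 0.47 in Sting gt/gt mice. Fcgr2b-/- minus wild-type was 1.38 (SE 0.47, 2.60-fold, unadjusted p = 0.0102, adjusted p = 0.9996 by limma), with 4 of 4 Fcgr2b-/- arrays above the wild-type mean. Within slides 1 and 2 it was 1.53 and 0.66, and with the slide as a block 1.29.

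Among the receptors of the endosome, TLR13 recognizes bacterial ribosomal RNA. Tlr13 was at 0.55, −1.11, −1.06, and −0.72 in the wild-type mice, at 2.89, −0.07, −0.33, and 1.69 in Fcgr2b-/- mice, at −0.28, 0.75, −0.14, and −0.66 in double-deficient mice, and at 0.45, −0.49, −0.57, and −0.49 in Sting gt/gt mice. Fcgr2b-/- replicates 1 and 4 were again on top, with double-deficient replicate 2 and then replicate 1 of the wild-type and of the Sting gt/gt mice next. The difference between Fcgr2b-/- and wild-type was 1.63 (SE 0.61, unadjusted p = 0.0171, adjusted p = 0.9996 by limma), with 4 of 4 Fcgr2b-/- arrays above the wild-type mean, and without Fcgr2b-/- replicate 1 it was 1.01. A second probe was well above background on only 5 arrays, 1 of them wild-type, and its difference is not given. On slide 1 and on slide 2 the difference of the brightest probe was 1.79 and 0.55, and with the slide as a block 1.47.

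Tlr3, the receptor for double-stranded RNA, signals through TRIF alone and is the one receptor here that does not use MYD88. Its values ran from −3.57 to −2.26 in wild-type, from −3.47 to −0.83 in Fcgr2b-/-, from −3.49 to −1.99 in double-deficient, and from −3.14 to −1.60 in Sting gt/gt mice. Fcgr2b-/- replicate 1 was the highest array, and replicate 4, which was high for the genes above, lay at −2.74 among the wild-type arrays. Fcgr2b-/- minus wild-type was 0.62 (SE 0.52, 95% interval −0.49 to 1.72), and without Fcgr2b-/- replicate 1 it was 0.11. The second probe was well above background on 12 arrays, and in only 2 of the 4 wild-type mice. On it, Fcgr2b-/- replicates 1 and 4 were at −2.62 and −2.84, and wild-type replicate 1 was at −2.72. Fcgr2b-/- replicates 2 and 3 were at −4.09, not well above background, and −4.12. Within slides 1 and 2 the difference of the brightest probe was 0.86 and −0.37, and with the slide as a block 0.59.

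Tlr9, the receptor for unmethylated CpG DNA, kept within a narrow range on its only probe, so no other probe checks this reading. Its values were 1.53, 2.23, 1.99, and 1.72 in the wild-type mice, 1.24, 2.24, 2.10, and 1.75 in Fcgr2b-/- mice, 1.89, 1.77, 1.83, and 2.18 in double-deficient mice, and 1.64, 1.71, 2.02, and 1.56 in Sting gt/gt mice. Fcgr2b-/- replicate 1, the highest array for Tlr1, Tlr2, Tlr4, Tlr6, Tlr13, and Unc93b1, was the lowest of the 16 for Tlr9. The means were 1.87 ± 0.30 (SD, n = 4) in wild-type, 1.83 ± 0.45 in Fcgr2b-/-, 1.92 ± 0.18 in double-deficient, and 1.73 ± 0.20 in Sting gt/gt mice, with each pair of groups closer than 1 SD of the wild-type mice. The difference between Fcgr2b-/- and wild-type was −0.04 (SE 0.25, 95% interval −0.57 to 0.50), and its sign turned under 3 of the 16 alternative settings and when any of 3 single arrays was left out, so no direction is given. On slide 1 and on slide 2 it was −0.14 and 0.25.

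**Figure D2:**
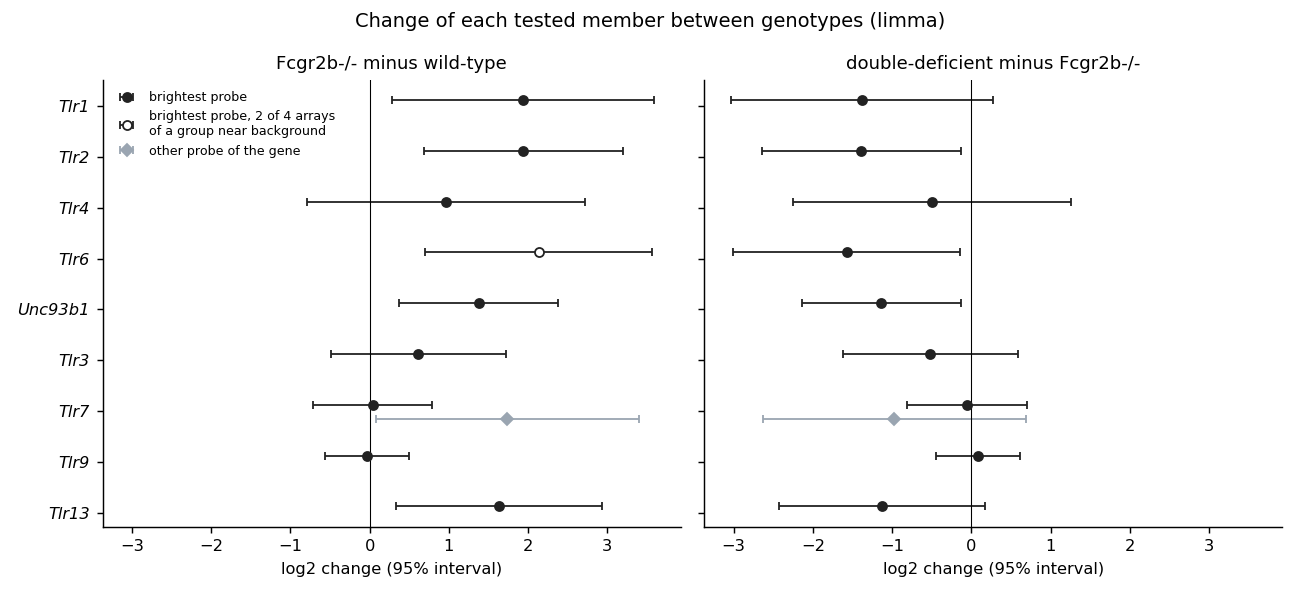
Log2 change by limma, with its 95% interval, of the 9 tested genes between Fcgr2b-/- and wild-type mice and between double-deficient and Fcgr2b-/- mice; circles are the brightest probe, open where 2 of the 4 arrays of a group were not well above background, and the grey diamond is the second probe of Tlr7. Tlr2 had a change of 1.94 in the first comparison and −1.39 in the second, and the brightest probe of Tlr7, at 0.04, parts from the second at 1.74; the signs of Tlr7 and Tlr9 turn under other scalings or a slide block.

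TLR7 and TLR8 sense single-stranded RNA, and the genes of both, as that of TLR13, lie on the X chromosome. The measured probes of Tlr7 did not run together. The brightest was at 0.54, 1.13, 0.90, and 0.89 in the wild-type mice, at 0.93, 1.21, 0.70, and 0.76 in Fcgr2b-/- mice, at 0.93, 1.0, 0.46, and 0.98 in double-deficient mice, and at 0.34, 0.65, 0.34, and −1.37 in Sting gt/gt mice. On it, 15 of the 16 arrays lay between 0.34 and 1.21, and Sting gt/gt replicate 4 was far below. The second probe was at −1.32, −3.78, −3.87, and −2.88 in the wild-type mice and at 0.46, −2.11, −2.71, and −0.54 in Fcgr2b-/- mice. It was at −2.31, −1.10, −2.37, and −3.03 in double-deficient mice and at −1.46, −2.65, −3.26, and −4.67 in Sting gt/gt mice, the last of which was not well above background. Here Fcgr2b-/- replicates 1 and 4 were the highest arrays, as for Tlr2 and Unc93b1. The third probe, at −7.29 to −6.04, was well above background on 0 of 16 arrays.

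Between Fcgr2b-/- and wild-type mice, the brightest probe of Tlr7 differed by 0.04 (SE 0.36, 95% interval −0.72 to 0.79). Its sign turned with scaling by the median of each array (−0.12) and with the slide as a block (−0.05), and the median of its probes in place of the brightest gave 0.89. The second probe differed by 1.74 (SE 0.78, unadjusted p = 0.0415, adjusted p = 0.9996 by limma), with 4 of 4 Fcgr2b-/- arrays above the wild-type mean of −2.96 ± 1.18 (SD). Within slides 1 and 2 the second probe differed by 1.82 and 0.66, and the brightest by 0.14 and −0.20. Both measured probes carry the same transcript accession, so the table used here gives no isoform that would part them. Over the 16 arrays, with the mean of each genotype removed, r between both probes was 0.30 (rho 0.13), and −0.25 without Sting gt/gt replicates 4 and 2. Changes of Tlr7 are therefore given for each probe apart, and counts of genes use the brightest.

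**Figure D3:**
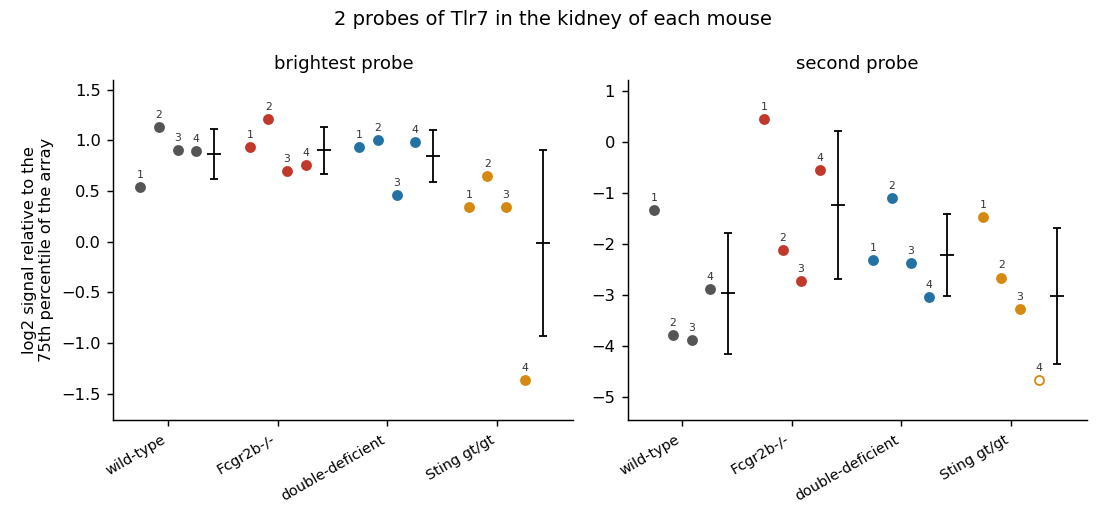
Log2 signal relative to the array's 75th percentile of the 2 measured probes of Tlr7 in each mouse; the number is the replicate, the open point was not well above background, and bars are the mean ± SD of 4 mice. Fcgr2b-/- replicate 1 was at 0.93 on the brightest probe and at 0.46, the highest of all arrays, on the second, and Sting gt/gt replicate 4 was the lowest array on both, at −1.37 and −4.67.

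Tlr8, with 1 probe, was well above background on 1 of 16 arrays, that of Fcgr2b-/- replicate 1, at −3.30. The other 15 arrays lay between −7.37 and −5.67. Tlr8 passed the filter in no comparison and was not tested, and no fold is given.

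In the double-deficient mice against the Fcgr2b-/- mice, the comparison of STING loss on the Fcgr2b-deficient background, 8 of the 9 tested genes had a lower mean and 1, Tlr9, a higher one. Tlr2 was at 0.05 or lower in all 4 double-deficient arrays, where Fcgr2b-/- replicates 1 and 4 were at 2.24 and 1.66. Replicates 2 and 3 of the Fcgr2b-/- mice lay within the range of the double-deficient mice, and the groups overlapped for every other tested gene as well. None of the 9 genes was called by limma, where 0 of all probes (0.0%) were. At an unadjusted p under 0.05, 3 genes passed, all of them lower (Tlr2, Tlr6, Unc93b1), beside 645 probes (1.81%) in either direction and 412 (1.16%) that were lower. By the Mann-Whitney test 0 of the 9 genes passed, beside 364 probes (1.02%) whose groups did not overlap. The median log2 change was −1.13 over the 9 genes and 0.06 over all probes.

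The log2 change of Tlr2 was −1.39 (SE 0.59, unadjusted p = 0.032, adjusted p = 0.9999 by limma), with 4 of 4 double-deficient arrays below the Fcgr2b-/- mean. Tlr6 gave −1.57 (SE 0.67, unadjusted p = 0.0329, adjusted p = 0.9999 by limma), with 4 of 4 below, and −0.73 with normexp. Unc93b1 gave −1.14 (SE 0.47, unadjusted p = 0.0287, adjusted p = 0.9999 by limma), also with 4 of 4 below. For Tlr2, Tlr6, and Unc93b1, Fcgr2b-/- replicates 2 and 3 themselves lay below the Fcgr2b-/- mean. The changes of Tlr1 and Tlr13 were −1.38 (SE 0.78) and −1.13 (SE 0.61), those of Tlr3 and Tlr4 −0.52 and −0.50, and those of Tlr7 and Tlr9 −0.06 and 0.08. The second probe of Tlr7 gave −0.97 (SE 0.78), and −0.41 without Fcgr2b-/- replicate 1. Without Fcgr2b-/- replicate 1 the change was −0.88 for Tlr2, −0.74 for Tlr1, −0.51 for Tlr13, and −0.72 for Unc93b1, that of Tlr3 was −0.0124, and that of Tlr4 turned to 0.09.

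Within slides, this comparison set 1 double-deficient array against 3 Fcgr2b-/- arrays on slide 1, and 3 against 1 on slide 2. On slide 1 the difference was −1.88 for Tlr2, −2.04 for Tlr6, −1.76 for Tlr1, −1.78 for Tlr13, and −1.76 for Unc93b1. On slide 2, where the only Fcgr2b-/- array was the low replicate 3, it was −0.05 for Tlr2, −0.13 for Tlr6, 0.05 for Tlr1, 0.32 for Tlr13, and −0.17 for Unc93b1, and it went the other way for Tlr4 (0.93), Tlr3 (0.66), and the second probe of Tlr7 (0.54). With the slide as a block the change was −1.12 for Tlr2, −1.35 for Tlr6, −0.90 for Tlr1, −0.80 for Tlr13, and −0.96 for Unc93b1. Both comparisons share the 4 Fcgr2b-/- arrays, so that a high array raises the first difference and lowers the second. Side by side, Tlr2 gave 1.94 and −1.39, and Unc93b1 1.38 and −1.14.

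In the Sting gt/gt mice against wild-type, 7 of the 9 genes had a higher mean and 2, Tlr7 and Tlr9, a lower one. None of the 9 genes was called by limma, where 0 of all probes (0.0%) were. At an unadjusted p under 0.05, 1 gene passed, the brightest probe of Tlr7, which was lower, beside 1339 probes (3.76%) in either direction and 682 (1.91%) that were lower. By the Mann-Whitney test 0 genes passed, beside 727 probes (2.04%) whose groups did not overlap. Tlr7 had a log2 change of −0.87 (SE 0.36, unadjusted p = 0.0264, adjusted p = 0.732 by limma), with 4 of 4 Sting gt/gt arrays below the wild-type mean. That change rested in part on Sting gt/gt replicate 4, without which it was −0.42 (unadjusted p = 0.0874 by limma). The second probe differed by −0.05 (SE 0.78). On slide 1 and on slide 2, with 2 arrays against 2 on each, the brightest probe differed by −0.34 and −1.41, and with the slide as a block by −0.87. The other genes ranged from −0.13 for Tlr9 to 1.08 (SE 0.67) for Tlr6, whose wild-type replicates 2 and 3 were not well above background. The median log2 change was 0.33 over the 9 genes and 0.00 over all probes.

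In the double-deficient mice against wild-type, the second probe of Tlr7 differed by 0.76 (SE 0.78). Wild-type replicates 2 and 3 were not well above background for Tlr6. On their brightest probes, the changes of the 9 genes ran from −0.02 for Tlr7 to 0.56 for Tlr6, each smaller than its SE. None was called by limma, where 0 of all probes (0.0%) were, and 0 passed at an unadjusted p under 0.05, beside 151 probes (0.424%). By the Mann-Whitney test 0 passed, beside 195 probes (0.547%) whose groups did not overlap. The median was 0.47 over the 9 genes and 0.00 over all probes. For Tlr2 the change was 0.55 with a 95% interval of −0.70 to 1.80, so these arrays do not bound it below a doubling.

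In the double-deficient mice against the Sting gt/gt mice, 5 genes had a higher and 4 a lower mean. None was called by limma, where 0 of all probes (0.0%) were. At an unadjusted p under 0.05, 1 gene passed, Tlr7, which was higher, beside 1085 probes (3.05%) in either direction and 580 (1.63%) that were higher. By the Mann-Whitney test 0 genes passed, beside 759 probes (2.13%) whose groups did not overlap. The brightest probe of Tlr7 differed by 0.85 (SE 0.36, unadjusted p = 0.0297, adjusted p = 0.885 by limma). All double-deficient arrays lay above the Sting gt/gt mean of −0.01, but so did every Sting gt/gt array except replicate 4 (−1.37). Double-deficient replicate 3 (0.46) lay below Sting gt/gt replicate 2 (0.65). Without Sting gt/gt replicate 4 the brightest probe of Tlr7 differed by 0.40 (unadjusted p = 0.103 by limma). Within slides 1 and 2 it differed by 0.44 (1 array against 2) and 1.33 (3 against 2), and with the slide as a block by 0.94. The second probe, not well above background in Sting gt/gt replicate 4, differed by 0.81 (SE 0.78) and did not pass. The others ran from −0.65 (SE 0.52) for Tlr3 to 0.23 for Tlr1. In Sting gt/gt replicate 4 the brightest probe of Tlr3 was the highest of its group (−1.60), whereas the second was the lowest (−4.79) and not well above background, so no direction is given for Tlr3. The medians were 0.02 over the 9 genes and 0.01 over all probes.

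The interaction asks whether the loss of STING moved a gene differently with and without Fcgr2b. On their brightest probes, it was below 0 for 7 of the 9 genes and above 0 for Tlr7 and Tlr9. The probes of Tlr7 had opposite signs, with 0.82 on the brightest and −0.93, smaller in size than its SE, on the second. Neither passed at an unadjusted p under 0.05, so no direction is given for Tlr7. None of the 9 genes was called by limma, where 0 of all probes (0.0%) were. At an unadjusted p under 0.05, 3 genes passed, all of them lower, beside 2234 probes (6.27%) in either direction and 949 (2.66%) that were lower. Tlr2 had an interaction of −1.92 (SE 0.83) and Unc93b1 of −1.45 (SE 0.67), each with an adjusted p of 0.661 by limma. The third was Tlr6, whose interaction is not given a size, since arrays of 3 of the 4 genotypes were not well above background. The median was −1.44 over the 9 genes and 0.03 over all probes. The Mann-Whitney test has no form for an interaction.

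Tlr1, Tlr2, Tlr4, Tlr6, Tlr13, and Unc93b1 varied together between mice of one genotype. With the mean of each genotype removed, r over the 16 arrays was between 0.80 (Tlr6 and Unc93b1, rho 0.84, 0.81 without 2 arrays) and 0.97 (Tlr2 and Tlr13, rho 0.93, 0.96 without 2 arrays) for each pair of them. The 2 arrays left out were those farthest from the median of the first gene. Tlr9 ran against all 6, from r = −0.80 with Unc93b1 (rho −0.71, −0.62 without 2 arrays) to −0.90 with Tlr1 (rho −0.86, −0.85 without 2 arrays). Tlr3 followed them less closely, with r = 0.66 to Tlr2 (rho 0.53) that was 0.39 without Fcgr2b-/- replicates 1 and 3, so that much of it rests on these. The brightest probe of Tlr7 had r = −0.04 with Tlr2 (rho −0.16, −0.13 without 2 arrays), and the second probe 0.88 (rho 0.86, 0.83 without 2 arrays). In all, 45 pairs were computed, as descriptions of arrays that share a scan and a scaling. Over all tested probes, with genotype means removed, wild-type replicate 1 had r = 0.81 with double-deficient replicate 2 and −0.65 with Fcgr2b-/- replicate 2. Mice thus differed across many probes at once, and a high r between 2 genes need not be particular to them.

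By the same measure, the genes most like each member were named out of 16383, with no claim on their function. They were Arhgdib, Lck, and Vcam1 for Tlr2 (r = 0.99 for Arhgdib, rho 0.97, 0.98 without 2 arrays), Pdgfra, Filip1l, and Coro1a for Tlr4 (0.99 for Pdgfra, rho 0.98, 0.98 without 2 arrays), and Aif1, Lyn, and Casp12 for Tlr13 (0.99 for Aif1, rho 0.99, 0.98 without 2 arrays). Tlr1 was most like Frem1, Gpr141b, and Tnc (r = 0.98 for Frem1, rho 0.97, 0.97 without 2 arrays), and Tlr6 most like Armc2, Rgs2, and Gria4 (0.97 for Armc2, rho 0.97, 0.96 without 2 arrays). Unc93b1 was most like Csf2rb, Tnfrsf1b, and Cd2 (r = 0.98 for Csf2rb, rho 0.92, 0.96 without 2 arrays). Tlr3 was most like Pibf1, Zfp157, and Vps13c (r = 0.95 for Pibf1, rho 0.95, 0.94 without 2 arrays), and Tlr9 most like Cyb561d2, Gm5617, and Zfp771 (0.98 for Cyb561d2, rho 0.98, 0.99 without 2 arrays). The brightest probe of Tlr7 was most like Zbtb8a, Sri, and Get1 (r = 0.91 for Zbtb8a, rho 0.74), and without Sting gt/gt replicates 4 and 2 that r was 0.58, so it rests on these mice. The second probe of Tlr7, looked up after its values were seen, was most like Gm8369, Ccl6, and Smc3 (r = 0.98 for Gm8369, rho 0.97, 0.96 without 2 arrays).

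Markers of macrophages moved with these genes. Of 16 macrophage genes, 15 were tested, 13 had a change above 0 and 2 below 0 between Fcgr2b-/- and wild-type mice, 12 were higher at an unadjusted p under 0.05, beside 2.64% of all probes, and 0 were called, with a median of 2.25. Lyz2, the lysozyme of myeloid cells, had the largest change, 3.21 (SE 0.80), followed by Mrc1, the mannose receptor, with 2.68 and Adgre1, which encodes F4/80, with 2.56. The mean log2 signal of the list was 1.84, −0.05, 0.02, and 0.64 in wild-type replicates 1 to 4, 3.84, 1.49, 1.34, and 3.49 in Fcgr2b-/- mice, 1.14, 2.07, 1.15, and 0.75 in double-deficient mice, and 1.92, 0.84, 0.62, and 0.54 in Sting gt/gt mice. Fcgr2b-/- replicates 1 and 4 were highest, as for Tlr2, and double-deficient replicate 2 and replicate 1 of both other genotypes were the highest of their genotypes. The signals of the list, each relative to the 75th percentile, summed to 116, 78.3, 60.6, and 72.1 in wild-type, 349, 87.0, 101, and 260 in Fcgr2b-/-, 74.8, 139, 74.5, and 84.9 in double-deficient, and 115, 71.7, 88.9, and 263 in Sting gt/gt mice. By this sum, which its brightest gene can carry, Sting gt/gt replicate 4 was high, whereas by the mean it was not. The brightest probe of the list was that of Itgam, and all 15 were well above background on every array but wild-type replicate 3, where 13 were. Between double-deficient and Fcgr2b-/- mice the median of the list was −1.46, with 7 genes lower at an unadjusted p under 0.05, beside 1.16% of all probes.

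With the mean of each genotype removed, r with the macrophage mean over the 16 arrays, and again without the 2 arrays farthest in that mean, was 0.97 for Tlr2 (rho 0.95, 0.97 without 2 arrays), 0.97 for Tlr13 (rho 0.97, 0.99 without 2 arrays), and 0.98 for Tlr4 (rho 0.98, 0.97 without 2 arrays). It was 0.96 for Tlr1 (rho 0.92, 0.94 without 2 arrays), 0.93 for Unc93b1 (rho 0.87, 0.90 without 2 arrays), and 0.89 for Tlr6 (rho 0.93, 0.82 without 2 arrays). It was 0.59 for Tlr3 (rho 0.49), which was 0.26 without Fcgr2b-/- replicate 1 and wild-type replicate 1 and so rests on these. For Tlr9 it was −0.83 (rho −0.81, −0.69 without 2 arrays). The brightest probe of Tlr7 gave 0.00 (rho −0.18, 0.12 without 2 arrays) and the second 0.94 (rho 0.91, 0.89 without 2 arrays). Such values were not particular to macrophages. For Tlr2, r was 0.95 with the T and NK cell list (rho 0.82, 0.92 without 2 arrays) and 0.93 with the conventional dendritic cell list (rho 0.78, 0.90 without 2 arrays), and for Unc93b1 it was 0.91 (rho 0.90, 0.92 without 2 arrays) and 0.92 (rho 0.87, 0.95 without 2 arrays). The part of the macrophage and other leukocyte markers in the differences of the receptors was not tested.

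**Figure D4:**
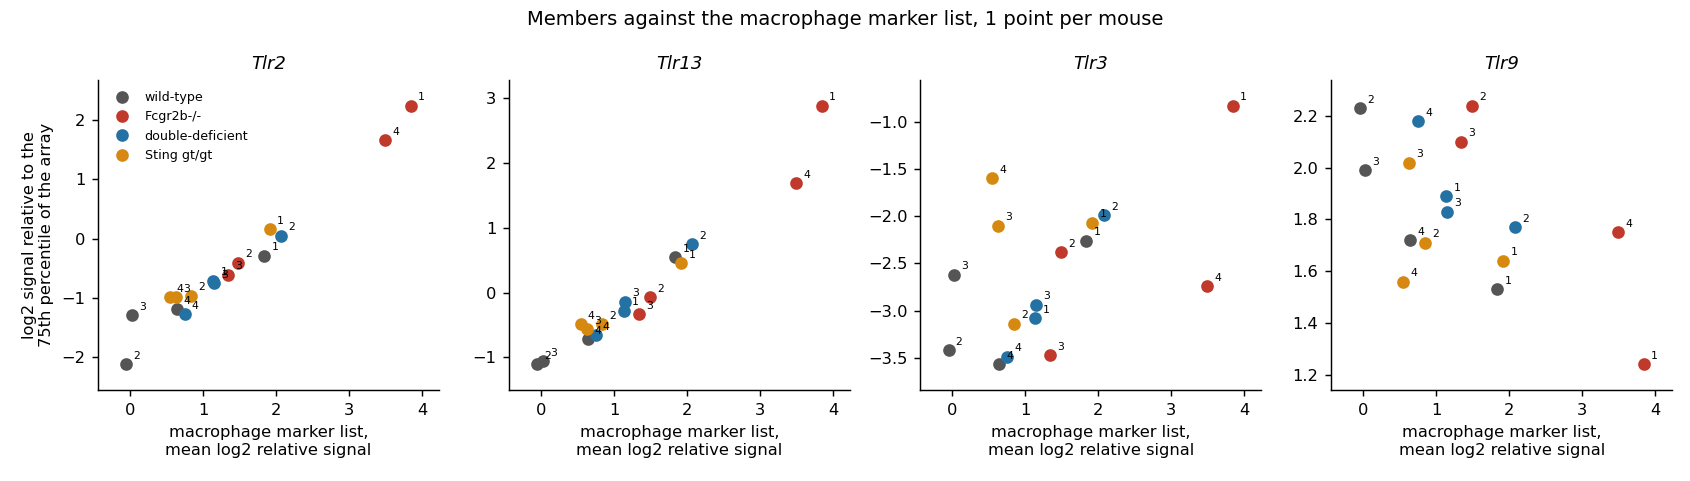
Log2 signal of the brightest probe of Tlr2, Tlr13, Tlr3, and Tlr9 relative to the array's 75th percentile, against the mean log2 signal of 15 macrophage markers, 1 point per mouse, with the number of the replicate and the color of the genotype. Fcgr2b-/- replicates 1 and 4 lie at 3.84 and 3.49 on the macrophage axis, where Tlr2 and Tlr13 were highest, and Tlr9, at 1.24 and 1.75, was not.

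Markers of the proximal tubule were lowest on Fcgr2b-/- replicate 1, and replicate 4 also lay below every wild-type array. All 8 proximal tubule genes were tested, and all 8 had a change below 0 between Fcgr2b-/- and wild-type mice, with a median of −0.38 and 0 at an unadjusted p under 0.05. The mean of the list was 7.27, 8.15, 7.94, and 7.52 in the wild-type mice, 6.11, 8.11, 7.86, and 7.15 in Fcgr2b-/- mice, 7.76, 7.48, 7.56, and 7.93 in double-deficient mice, and 7.03, 7.58, 7.60, and 7.32 in Sting gt/gt mice, the probe of Kap being the brightest. Fcgr2b-/- replicate 1 was the lowest of the 16 arrays, as it was for Tlr9, and the list mean of the Fcgr2b-/- mice differed from that of the wild-type mice by −0.42 with this array and by −0.0162 without it. With genotype means removed, r with the tubule mean was 0.94 for Tlr9 (rho 0.92, 0.89 without 2 arrays) and −0.91 for Tlr2 (rho −0.91, −0.91 without 2 arrays). In all, 120 such values of a gene against a marker list were computed. The part of the tubule markers in the level of Tlr9 was not tested.

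The other marker lists were described in the same way, by how many genes were above 0 between Fcgr2b-/- and wild-type mice and by their median, beside a median of −0.06 over all probes, and the 3 genes named from each are those with the largest change in either direction. Monocyte and neutrophil genes had 9 of 10 above 0 (median 1.25), with Chil3 at 3.14 (SE 0.95), F13a1 at 2.24, and S100a8 at 1.47. T and NK cell genes had 10 of 11 above 0 (median 0.73), with Cd5 at 1.44, Cd3d at 1.04, and Lck at 1.01. Conventional dendritic cell genes had 8 of 9 above 0 (median 0.52), with Itgax at 2.51 (SE 0.75), Batf3 at 0.89, and Cd209a at −1.61. B and plasma cell genes had 6 of 10 above 0 (median 0.14), with Cd79b at 1.23, Pou2af1 at 0.75, and Sdc1 at 0.65. Plasmacytoid dendritic cell genes, the cells known for TLR7 and TLR9, had 4 of 8 above 0 (median −0.01), with Spib at 1.04, Bst2 at 0.80, and Cox6a2 at −0.46. The brightest probe of that list was that of Klk1, a kallikrein that kidney tubules also make, so the list is not a measure of these cells alone. Podocyte genes had 6 of 6 above 0 (median 0.84), with Synpo at 1.08, whose groups did not overlap, Nphs1 at 0.96, and Ptpro at 0.93. Endothelial genes had 5 of 6 above 0 (median 0.33), with Cdh5 at 0.81, Egfl7 at 0.48, and Tie1 at 0.38. Genes of the loop of Henle, the distal tubule, and the collecting duct had 2 of 6 above 0 (median −0.05), with Calb1 at −0.85, Slc12a3 at −0.40, and Umod at 0.12. Fat genes had 0 of 7 above 0 (median −0.51), with Plin1 at −0.83, Retn at −0.60, and Cidec at −0.51. Of all these lists, 0 genes were called by limma in any comparison.

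Fat and endothelial signals were high on replicate 1 of 3 genotypes. The mean of the fat list was 2.24 in wild-type replicate 1, 2.13 in Fcgr2b-/- replicate 1, and 1.17 in Sting gt/gt replicate 1, and 0.13 or lower on the other 13 arrays, the probe of Cfd being the brightest. The endothelial mean was 2.93 in wild-type replicate 1, 2.56 in Fcgr2b-/- replicate 1, and 2.96 in Sting gt/gt replicate 1, with the probe of Emcn the brightest, and the other arrays ran from 0.43 in wild-type replicate 2 to 2.41 in Sting gt/gt replicate 3, so that these 3 stood less apart than by the fat list. With genotype means removed, r of Tlr2 with the fat mean was 0.51 (rho 0.20) and −0.10 without Fcgr2b-/- replicate 1 and wild-type replicate 1, on which it rests. With the endothelial mean, r of Tlr4 was 0.91 (rho 0.89, 0.83 without 2 arrays). Their part in the levels of the receptors was not tested.

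The rest of the Toll-like receptor pathway was read from lists by role, in which the counts at an unadjusted p under 0.05 stand beside 2.64% of all probes that were higher at that threshold. The other 3 receptors on the array, Tlr5 for flagellin and Tlr11 and Tlr12 for profilin, had changes of 0.66 (SE 0.68), 0.55 (SE 0.96), and −0.04 (SE 0.52) between Fcgr2b-/- and wild-type mice. Of 20 chaperones, coreceptors, and processing enzymes, 19 were tested, and 14 had a change above 0 and 3 were higher at an unadjusted p under 0.05 (median 0.25). In this list, Ctss, a protease that cleaves endosomal receptors, was at 2.18 (SE 0.83), and Cd14, a coreceptor of TLR4, at 1.64 (SE 0.57). Ly86, a partner of the receptor-like CD180, was at 1.74 (SE 0.88) and did not pass that threshold. Of 23 adaptors and proximal kinases, 22 were tested, and 9 were above and 13 below 0 with a median of −0.10, and 3 were higher and 0 lower at an unadjusted p under 0.05. Its largest changes were those of Pik3ap1, an adaptor to phosphoinositide 3-kinase, at 2.48 (SE 0.81), Btk, a kinase of myeloid and B cells, at 1.57, and Ikbke, a kinase of interferon regulatory factors, at 1.26 (SE 0.47), whose 4 Fcgr2b-/- arrays lay above the wild-type arrays.

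Of 13 transcription factors downstream of the receptors, 12 were tested, and 11 had a change above 0 and 7 were higher at an unadjusted p under 0.05 (median 0.86). The largest were those of Fos at 2.33 (SE 0.76) and Atf3 at 1.58, both of the AP-1 family, and Relb, a subunit of NF-kappa-B, at 1.24. Of 15 negative regulators, 12 had a change above 0 and 3 were higher at an unadjusted p under 0.05 (median 0.60). The largest changes were those of Cd300a, an inhibitory receptor, at 1.86 (SE 0.54) and Irak3, an inhibitory kinase of the pathway, at 1.65. Trim30a followed at 1.16 (SE 0.84) and did not pass that threshold. Of 19 cytokines and chemokines that the receptors induce, 13 were tested, and 12 had a change above 0 and 6 were higher at an unadjusted p under 0.05 (median 1.45).

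These cytokines had the largest changes of the pathway. Il1rn, the antagonist of the interleukin-1 receptor, was higher by 4.33 (SE 0.84, adjusted p = 0.133 by limma) in Fcgr2b-/- mice, and all 4 of their arrays lay above all 4 wild-type arrays. Ccl3, a chemokine for monocytes, was higher by 3.37 (SE 0.70, adjusted p = 0.215 by limma), and Ccl4, its neighbor in function, by 3.23 (SE 0.73, adjusted p = 0.322 by limma), both without overlap. None of these 3 passed the adjusted threshold. Of the 13 tested genes of this list, 11, 10, 9, and 10 were well above background in wild-type replicates 1 to 4. In the Fcgr2b-/- replicates 13, 9, 11, and 13 were. The sizes of the changes in this list can therefore depend on how background is treated. Of 17 interferon-induced genes, 16 were tested, and 16 had a change above 0 and 5 were higher at an unadjusted p under 0.05 (median 1.02), with Oas2 at 2.27, Oas1a at 1.86, and Oasl2 at 1.60, which make or resemble the enzymes that activate RNase L.

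In the double-deficient mice against the Fcgr2b-/- mice, the medians of the same lists lay below 0 or at 0. They were −1.13 for the cytokines and chemokines, with 4 genes lower at an unadjusted p under 0.05, −0.94 for the interferon-induced genes, with 5 lower, and −0.67 for the transcription factors, with 3 lower. The negative regulators had a median of −0.50 with 2 lower, the chaperones and coreceptors of −0.24 with 1 lower, the adaptors and kinases of 0.00 with 1 lower, and the 3 other receptors of −0.55 with 0 lower. Of all probes, 1.16% were lower at that threshold, and their median was 0.06. As for Tlr1, Tlr2, Tlr6, Tlr13, and Unc93b1, Fcgr2b-/- replicates 1 and 4 had the highest means of the cytokine list, at 0.97 and 0.33, and all other arrays lay between −3.25 and −1.24.

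In position, Tlr1 and Tlr6 lie on chromosome 5 and Tlr7, Tlr8, and Tlr13 on the X chromosome. In the RefSeq table, Tlr6 overlaps Fam114a1 and Mir574, and none of the other members had an overlapping gene within 2 kb. Whether the probe of Tlr6 also binds RNA of Fam114a1 was not tested.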

How the data were processed

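Kidney RNA (100 ng per sample) had been labelled with Cy3 and scanned by the authors, and the intensity of each spot was deposited as made by Feature Extraction 11.0.1.1, with its background correction and its mark for spots well above background. The log2 values in the table that the authors deposited had been normalized by them already, and that table served only as an alternative. Here spots of a probe were averaged after outlier spots were left out, the log2 of the processed signal was taken, and the 75th percentile over the probes of an array was subtracted. Of 56605 probes, 32994 (58.3%) carried an accession that RefSeq names, which gave 22911 gene symbols. limma fitted 1 mean per genotype with moderated variances. R 4.3.3, limma 3.58.1, statmod 1.5.0, Python 3.11.15, pandas 2.3.3, numpy 2.4.6, scipy 1.17.1, and matplotlib 3.10.9 were used. The 32 alternatives were 16 fits without 1 array each and 16 other settings, of which the 75th percentile over spots was chosen after seeing the data. The genes and lists were chosen with earlier results of these data known. Other tissues and assays of the study were not used here. 1 marker list is not reported here.

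All groups had 4 mice. The Fcgr2b genotype goes with the strain, wild-type mice differed from the others in source, also from the Sting gt/gt mice, and 1 probe stands for most genes. Comparisons that share the Fcgr2b-/- or the wild-type arrays are not independent. The interval of Tlr2 between Fcgr2b-/- and wild-type mice, 0.69 to 3.20, shows how little 4 against 4 arrays bound a change. RNA levels say nothing of protein or of where a receptor sits in the cell.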

Additional observations from a re-analysis of the deposited data

Results flagged for a closer look

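Single arrays that stood apart from the other 3 of their genotype were looked for with the Dixon ratio in 60 groups of 15 probes, where about 1 in 20 would stand apart by chance, and 7 were found. In Sting gt/gt mice, replicate 1 was the highest for Tlr2 (0.16), for Tlr4 (−0.40, and −4.18 on its second probe), for Tlr13 (0.45), and for Unc93b1 (1.97). On the brightest probe of Tlr7, replicate 3 of the double-deficient mice (0.46) and replicate 4 of the Sting gt/gt mice (−1.37) were the lowest of their groups. All 7 were kept. Without Sting gt/gt replicate 4, the change of Tlr7 between Sting gt/gt and wild-type mice was −0.42 in place of −0.87. What set these arrays apart was not tested.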

How the results depend on the processing

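Under the 32 alternatives, 0 of the tested genes among the 10 were called in the 5 comparisons of 2 genotypes, and 0 for the interaction under the 29 that give one, which leaves out both Mann-Whitney settings and the fit of only the groups compared. Over all probes, the 18 called between Fcgr2b-/- and wild-type mice (17 higher, 1 lower) became 10 with normexp (7 higher, 3 lower), 7 with the authors' table (6 higher, 1 lower), 0 with probes well above background on all 16 arrays, 0 with only the groups compared in the fit, 144 by unadjusted Mann-Whitney test (121 higher, 23 lower), 0 by that test after adjustment, 8 with the Y-linked signal as a covariate (5 higher, 3 lower), and 16 with the 75th percentile over spots, added after seeing the data. Leaving out single arrays gave 0 to 37. The counts by unadjusted Mann-Whitney test in this section keep the 2-fold threshold, so 144 is a part of the 441 probes without overlap given above. That test gave 41 between double-deficient and Fcgr2b-/- mice and 127 between Sting gt/gt and wild-type mice. It gave 63 between double-deficient and wild-type mice and 171 between double-deficient and Sting gt/gt mice. Between double-deficient and wild-type mice, normexp gave 1, the filter on all 16 arrays 1, only the groups compared 3, and leaving out single arrays 0 to 1. Between double-deficient and Sting gt/gt mice, only the groups compared gave 2, and leaving out single arrays 0 to 1. Counts at an unadjusted p under 0.05 also hung on single arrays, from 560 to 2861 between Fcgr2b-/- and wild-type, 187 to 1974 between double-deficient and Fcgr2b-/-, 329 to 2900 between Sting gt/gt and wild-type, 105 to 494 between double-deficient and wild-type, 334 to 2764 between double-deficient and Sting gt/gt mice, and 900 to 4902 for the interaction. Signs turned for 3 genes with small changes. Between Fcgr2b-/- and wild-type mice, Tlr7 was at −0.12 with median scaling and −0.0514 with a slide block but at 0.89 with the median of its probes, and Tlr9 at 0.0084 with quantile normalization, 0.0112 with the authors' table, and 0.0192 with the Y-linked covariate. Leaving out single arrays gave −0.0725 to 0.12 for Tlr7 and −0.17 to 0.16 for Tlr9. Between double-deficient and Fcgr2b-/- mice, a slide block put Tlr7 at 0.12 and the median of its probes at −0.52, the other settings put Tlr4 between −0.92 and −0.12, and leaving out single arrays gave −0.13 to 0.0697 for Tlr7, −0.99 to 0.0946 for Tlr4, and −0.11 to 0.22 for Tlr9. Arrays of equal replicate number are not labelled as pairs, and those of replicates 1 and 3 also share a slide. Their r ran from −0.603 to 0.689 over 24 pairs, with 11 over 0.1, and a block on the number gave 16 probes and 0 of the 10 genes. Tlr6 had no value with the filter on all 16 arrays, and the cause of these differences was not tested.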
